A study of Rattus norvegicus with 28 samples.

Results

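The regimen effect late in a 4-day protocol was set against its effect early on, in the terminal ileum of newborn rats, for every transcript on an expression array. Pups on the regimen were fed formula and put under hypoxic stress 3 times a day, and the pups they were compared with were breast-fed. The effect on a day is the mean log2 signal under formula and hypoxia minus the mean log2 signal under breast feeding. The late effect averages days 3 and 4, the early effect averages days 1 and 2, and the late minus early difference is the quantity tested. The series held 28 arrays, of which 24 entered: 3 of formula and hypoxia pups and 3 of breast-fed pups on each of days 1 to 4, with 1 pup per array. The 4 arrays of unfed newborns were not part of this comparison. Of 8799 probe sets, all 8740 that were not controls were tested. The labels name neither strain nor sex of the pups, and formula and hypoxia always came together, so the effects of each cannot be told apart.

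Necrotizing enterocolitis is an inflammatory disease of the immature bowel, and formula with hypoxia in newborn rats is a common model of it. The terminal ileum is the segment that takes up bile acids, and in suckling rats its epithelium also takes up milk proteins whole. Several gene systems in this tissue answer within hours to the diet or to stress: cytochrome P450 genes driven by the aryl hydrocarbon receptor, immediate early transcription factors such as Fos, which pairs with Jun proteins as AP-1, and gluconeogenic enzymes that suckling raises. A difference between late and early effects asks which of these responses arose, faded or turned over during the protocol. The labelled tissue was checked against markers of ileal epithelium, of which 11 of 12 genes were measured. Their summed normalised signal was 37827 to 45926 in late formula and hypoxia arrays, 29181 to 40414 in late breast-fed arrays, 27066 to 36582 in early formula and hypoxia arrays and 24745 to 32748 in early breast-fed arrays.

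Promoter sequences are shown for 3 genes whose differences are described below: Mmp10, which had the largest passing positive difference after Fos, Pck1, which had the largest positive difference, and Fabp6, which had the largest negative one. Each runs from 250 bases before to 50 bases after the gene's start, 5′ to 3′ on the gene's strand, from RefSeq on build GRCr8. The positions are chr8:12974457-12974756 on the plus strand for Mmp10, chr3:182348322-182348621 on the plus strand for Pck1 and chr10:28569678-28569977 on the minus strand for Fabp6. Capitals mark the match to a short motif, searched on both strands.
Mmp10: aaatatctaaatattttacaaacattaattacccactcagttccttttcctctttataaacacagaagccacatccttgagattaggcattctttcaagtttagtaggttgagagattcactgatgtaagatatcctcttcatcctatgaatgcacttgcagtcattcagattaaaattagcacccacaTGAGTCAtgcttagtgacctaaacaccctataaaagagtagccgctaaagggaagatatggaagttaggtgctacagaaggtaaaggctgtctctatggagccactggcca
Pck1: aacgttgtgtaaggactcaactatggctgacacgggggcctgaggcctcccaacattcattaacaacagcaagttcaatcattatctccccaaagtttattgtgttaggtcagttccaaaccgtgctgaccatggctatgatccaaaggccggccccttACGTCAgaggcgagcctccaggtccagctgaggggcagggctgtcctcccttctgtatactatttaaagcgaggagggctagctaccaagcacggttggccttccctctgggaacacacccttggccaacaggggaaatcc
Fabp6: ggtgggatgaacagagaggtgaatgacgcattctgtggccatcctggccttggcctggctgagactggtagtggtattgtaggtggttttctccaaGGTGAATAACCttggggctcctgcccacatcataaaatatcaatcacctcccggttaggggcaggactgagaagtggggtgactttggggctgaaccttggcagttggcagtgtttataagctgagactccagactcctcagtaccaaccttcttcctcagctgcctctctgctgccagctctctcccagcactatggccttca
The Mmp10 window holds TGAGTCA, the letters of an AP-1 site, starting 61 bases before the start, and 4.63% of all 33469 RefSeq rat promoters of this length hold it. The Pck1 window holds ACGTCA, the core of a cAMP response element, 91 bases before the start, as do 7.94% of the promoters. The Fabp6 window holds GGTGA, any base and TAACC, a pair of half-sites facing each other around a single base of the kind that the bile acid receptor binds, 154 bases before the start, as do 8 promoters (0.0239%). Of the 20 genes named by rule, 16 had a promoter entry, of which 2, 1 and 1 held these motifs. The motif shown for each gene was chosen for that gene, so neither the match nor its share of all promoters is a result. A match is a stretch of letters and was not tested as a site.

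A pair of breast-fed arrays, both late, stood apart. An abundant probe set, with a median above 500 over the other arrays, counted as lost where its own signal was more than 16-fold lower. That held for 69 of 754 on breast-fed day 3 replicate 3 and 48 of 757 on breast-fed day 4 replicate 2, against 0 to 2 on the other 22 arrays. The adjusted counts over all probe sets, the late counts and median differences of lists, and each gene's late effect and difference were therefore also computed without both. For lists, the early counts, the counts for the difference and the summed signals were computed with all arrays only. So were all counts at an unadjusted p. The sample accessions fall into 2 runs, and the second run held 1 of 6 late formula and hypoxia arrays, 4 of 6 late breast-fed arrays, 0 of 6 early formula and hypoxia arrays and 1 of 6 early breast-fed arrays. It held every breast-fed day 4 array but only replicate 3 of formula and hypoxia day 4, so regimen and run largely coincide on day 4. No label says what the runs stand for. The actin 3′ to 5′ ratio, a sign of RNA integrity, was 1.14 to 4.17. The 4.17 belonged to formula and hypoxia day 1 replicate 2, an early array, and every other array was at or under 2.42. The number of pups limits the precision: the median standard error was 0.32 for a late minus early difference and 0.23 for an early or a late effect, on the log2 scale.

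The late minus early difference passed the limma test (adjusted p under 0.05 over all 8740 probe sets, two-sided) for 12 probe sets, or 0.137%, of which 3 (0.0343%) were higher late and 9 (0.103%) lower late. At an unadjusted p under 0.05 the count was 894 (10.2%), 351 higher (4.02%) and 543 lower (6.21%). The late effect alone passed for 361 probe sets (4.13%), 118 higher (1.35%) and 243 lower (2.78%), and the early effect alone for 117 (1.34%), 44 higher (0.503%) and 73 lower (0.835%). These 2 counts are not a test of each other. Without the 2 arrays that stood apart the late effect passed for 207 probe sets, the early effect for 145 and the difference for 6, of which 5 were among the 12. With the accession run as a term 4 of the 12 passed: Cyp1a1, E00717UTR#1_s_at, Fos at X06769cds_at and Fabp6. Across probe sets, late and early effects, which share no array, had a Pearson correlation of 0.32 and a Spearman correlation of 0.24, given as a description of 8740 probe sets that are not independent. The median over all probe sets was 0.01 for the late effect, 0.02 for the early effect and -0.01 for the difference.

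**Figure D1:**
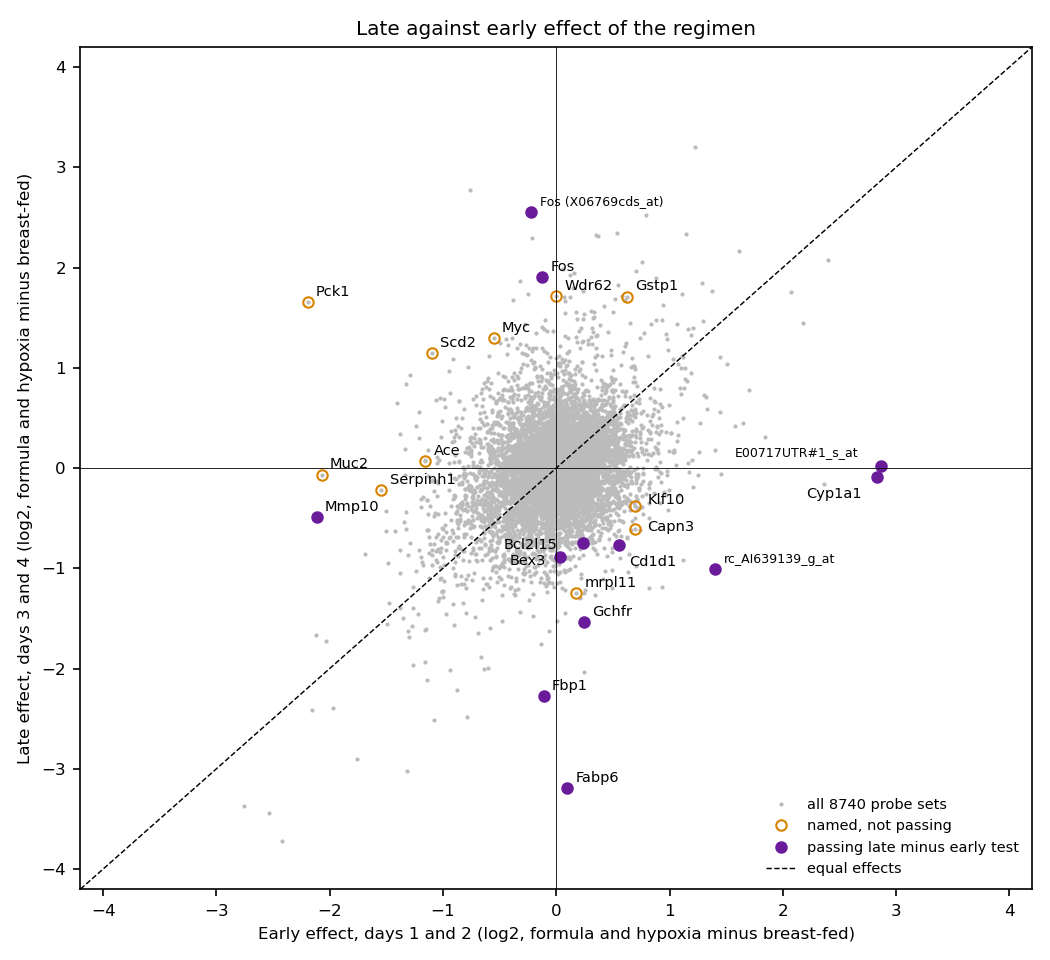
Late effect (y axis) against early effect (x axis) of formula and hypoxia minus breast feeding, both on the log2 scale, for all 8740 probe sets (grey). Filled points are the 12 probe sets that passed the late minus early test, open circles are genes named by rule that did not pass, and the dashed line marks equal effects; Cyp1a1 and E00717UTR#1_s_at lie far to the right near a late effect of 0, and both passing Fos probe sets lie high near an early effect of 0.

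The firmest difference between late and early days was an induction that was present early and gone late. Cyp1a1, the cytochrome P450 enzyme that is the classical target of the aryl hydrocarbon receptor, had normalised signals of 73.7, 35.6 and 147 in formula and hypoxia pups on day 1, against 8.95, 11.4 and 7.96 in breast-fed pups. On day 2 the signals were 188, 162 and 121 under formula and hypoxia, against 3.27, 11.1 and 8.34 under breast feeding. On day 3 they were 7.24, 14.6 and 6.77 under formula and hypoxia, against 9.44, 9.92 and 6.67 under breast feeding. On day 4 they were 6.41, 6.73 and 6.76 under formula and hypoxia, against 14.7, 5.66 and 8.16 under breast feeding. The regimens did not overlap on days 1 and 2, and on days 3 and 4 the formula and hypoxia arrays lay within or near the breast-fed range. Late, the effect was -0.09 (adjusted p = 0.889), the early effect was 2.83 (7.10-fold, adjusted p = 5.16e-07), and the late minus early difference was -2.91 (95% interval -3.62 to -2.21, limma adjusted p = 0.000121). The change over time in breast-fed pups was 0.05 (adjusted p = 0.926), and formula and hypoxia pups fell by 2.86 (adjusted p = 4.14e-07). The low signals lie near the pseudocount of 8 that was added before taking logs, so the size depends on it: the difference was -3.56 with a pseudocount of 2 and -1.85 with 32. The call held without each of the 24 arrays in turn and without both arrays that stood apart (-3.04, adjusted p = 0.000391), but not in the first accession run alone, where day 3 was set against days 1 and 2 (-2.88, adjusted p = 0.0922).

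The probe set E00717UTR#1_s_at, for which the platform annotation gives no gene, had the smallest p-value of all. Its late signals were 35.9 to 66.1 (median 55.1) in formula and hypoxia pups and 44.3 to 67.8 (median 48.4) in breast-fed pups. Its early signals were 324 to 920 (median 576) in formula and hypoxia pups and 43.9 to 89.1 (median 75.1) in breast-fed pups. Only the early groups stood apart. It had a late effect of 0.02, an early effect of 2.86 (adjusted p = 1.82e-08) and a difference of -2.84 (-3.42 to -2.27, adjusted p = 1.13e-05). This probe set passed in every setting that tested it, the first accession run alone included (-3.18, adjusted p = 0.000848). Other members of the list of cytochromes P450 and conjugating enzymes had other time courses: of 50 probe sets, 4 were higher and 0 lower late (2 higher without both arrays), beside 1.35% and 2.78% of all probe sets. Early, 3 were higher and 1 lower, beside 0.503% and 0.835%, and 1, Cyp1a1, passed the difference. Cyp3a9, a drug-metabolising cytochrome, had a late effect of 3.21 (adjusted p = 7.51e-05) and an early effect of 1.23 (adjusted p = 0.15), with a difference of 1.98 that did not pass (0.80 to 3.16, adjusted p = 0.213). The sulfotransferase gene Sult1a1 had effects of 1.47 late and 1.30 early at L19998_at, both passing, with a difference of 0.17 (adjusted p = 0.923). The list's median difference was 0.01, against -0.01 over all probe sets.

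**Figure D2:**
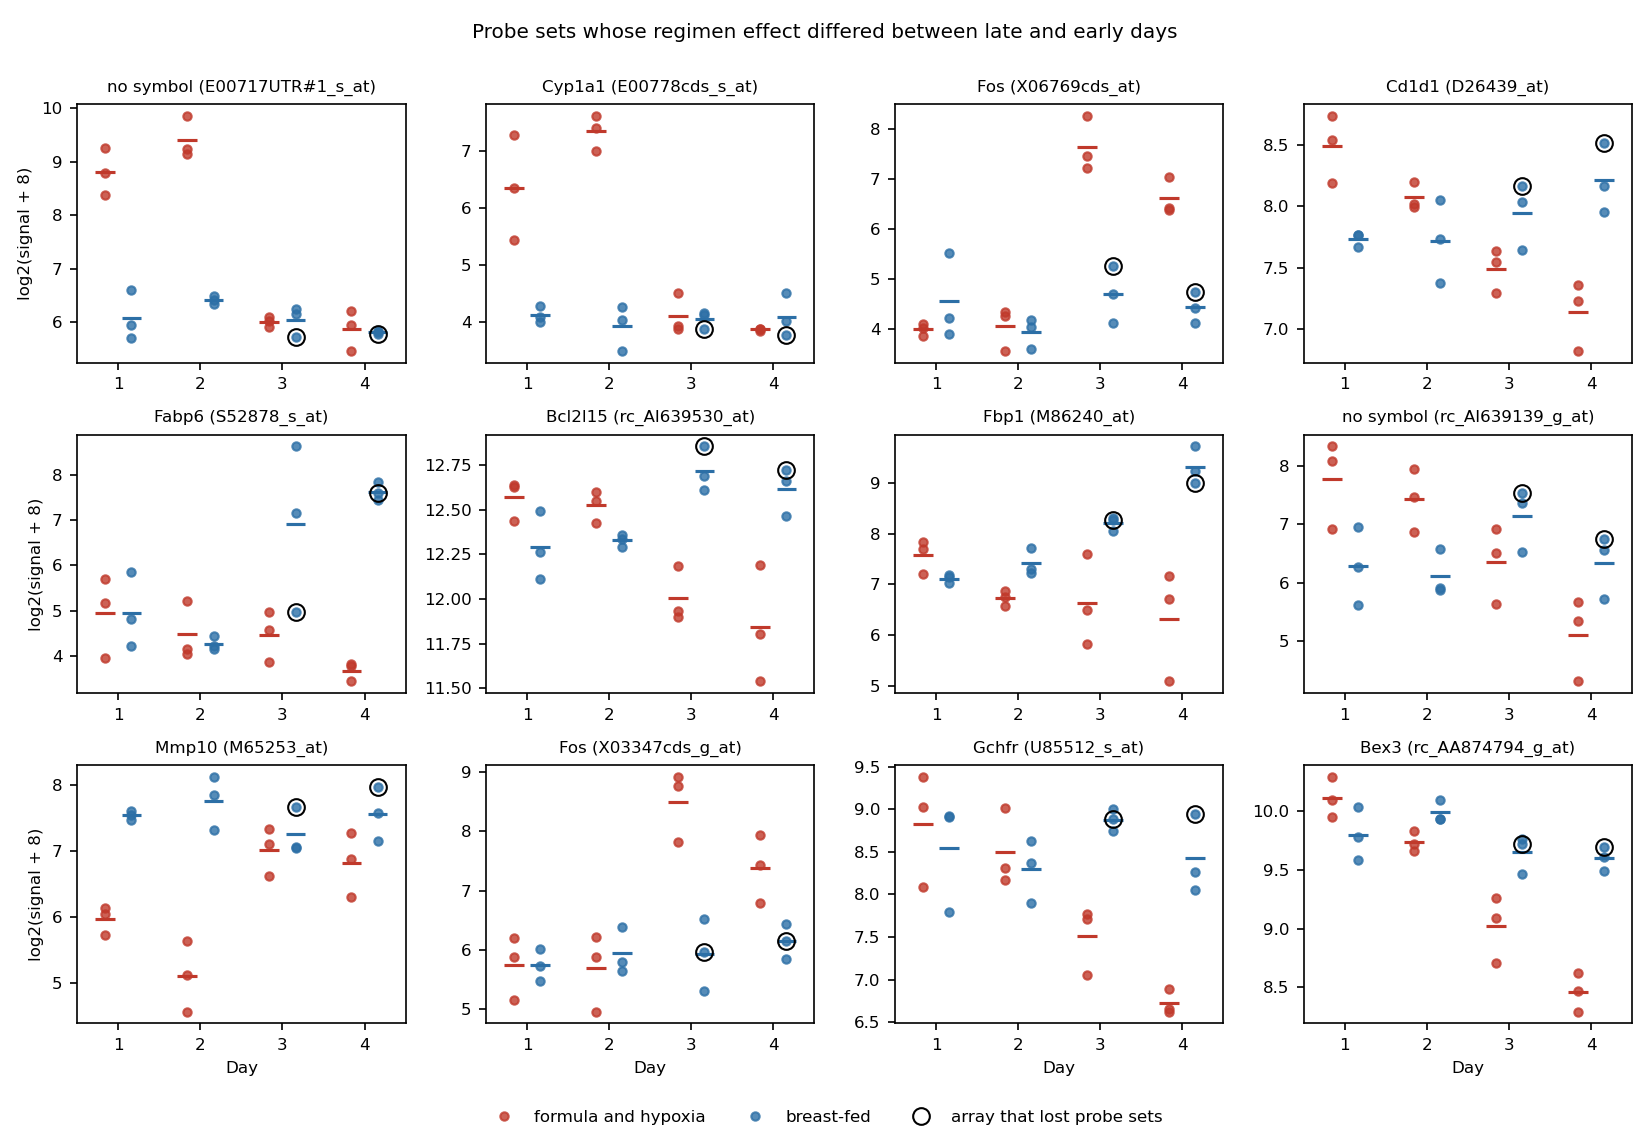
Normalised signal on the log2 scale (pseudocount 8) of each array (points) and the group mean (bars) by day, formula and hypoxia left of breast-fed, for the 12 probe sets that passed the late minus early test. Black rings mark the 2 arrays that had lost abundant probe sets; Cyp1a1 and E00717UTR#1_s_at show an early difference that is absent late, Fos shows the reverse, and Fabp6 and Fbp1 are high in breast-fed pups on days 3 and 4.

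An induction that was absent early and present late was seen in Fos, the AP-1 subunit and classical immediate early gene. Its probe set X06769cds_at had signals of 6.56, 9.20 and 8.42 in formula and hypoxia pups on day 1, against 10.8, 7.12 and 38.0 in breast-fed pups, and 12.3, 11.2 and 3.89 on day 2, against 10.2, 4.15 and 8.58. On day 3 it had 167, 141 and 297 under formula and hypoxia, against 9.46, 18.2 and 30.2 under breast feeding. On day 4 it had 75.3, 123 and 77.6 under formula and hypoxia, against 9.45, 19.0 and 13.7 under breast feeding. The groups overlapped on days 1 and 2 and stood apart on days 3 and 4. The late effect was 2.56 (5.89-fold, adjusted p = 1.35e-05), the early effect -0.22 (adjusted p = 0.827), and the difference 2.78 (1.98 to 3.58, adjusted p = 0.0013). A second probe set, X03347cds_g_at, gave late signals of 103 to 477 (median 227) under formula and hypoxia and 31.5 to 83.7 (median 58.9) under breast feeding. Early it gave 23.1 to 66.6 (median 51.1) under formula and hypoxia and 36.7 to 75.5 (median 46.2) under breast feeding, so only the late groups were apart. Its difference was 2.03 (1.20 to 2.86, adjusted p = 0.0446). Another, X06769cds_g_at, had a difference of 1.93 that did not pass (adjusted p = 0.0816), with a late effect of 1.99 that did (adjusted p = 0.000602). X06769cds_at passed without each array in turn and within the first accession run (3.58, adjusted p = 0.0126), whereas X03347cds_g_at passed in 6 of 24 single omissions and had adjusted p = 0.0882 without both arrays that stood apart.

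Immediate early genes, which need no new protein to be switched on, were also described as a list that includes Fos. It had 48 probe sets for 23 genes. In the late effect 18 were higher and 0 lower (12 higher without both arrays that stood apart), against 1.35% and 2.78% of all probe sets. Several of these 18 shared a gene: Fos, Dusp1, Jun, Klf4, Myc and Zfp36 each had more than 1. In the early effect 1 was higher and 0 lower, against 0.503% and 0.835% of all probe sets. In the difference, 2 passed, both for Fos, and 37 of 48 were positive, with 20 higher and 1 lower at an unadjusted p under 0.05, where all probe sets gave 4.02% and 6.21%. The list's median was 0.87 in the late effect and 0.13 in the early effect, and its median difference was 0.74, between 0.67 and 0.75 without both arrays, under either other scaling and with the accession run as a term. Jun, the partner of Fos in AP-1, had a late effect of 1.68 (adjusted p = 0.0345) and an early effect of -0.38 at probe set rc_AI175959_at, with a difference of 2.06 (adjusted p = 0.222). Without both arrays its late effect was 1.103 (adjusted p = 0.124). Dusp1, a phosphatase that switches off MAP kinases, had 1.79 late (adjusted p = 0.00974) and 0.15 early at U02553cds_s_at, and a difference of 1.64 (adjusted p = 0.271). The transcription factor gene Nr4a1 had 1.93 late (adjusted p = 0.0184) and 0.12 early at U17254_g_at, with a difference of 1.81 (adjusted p = 0.296). Its late effect without both arrays was 1.53 (adjusted p = 0.103). Egr1 had 1.24 late (adjusted p = 0.0168) and 0.28 early at AF023087_s_at, its only probe set to pass late, and the daily effects were 0.46, 0.10, 2.17 and 0.31. Without both arrays this late effect had adjusted p = 0.058. Atf3, a stress-induced transcription factor gene, had 1.01 late (adjusted p = 0.00805) and 0.09 early. Myc, the growth regulator, had 1.30 late (adjusted p = 0.0166) and -0.55 early, with a difference of 1.85 that did not pass (adjusted p = 0.101) and signals at or under 61.8 on every array at Y00396mRNA_at. Without both arrays the late Myc effect was 1.12 (adjusted p = 0.0933). Junb had 1.12 late (adjusted p = 0.00413) and 0.81 early (adjusted p = 0.0609) at X54686cds_at. The only early call was Klf10, a TGF-beta-induced repressor gene, at 0.70 early (adjusted p = 0.0301) and -0.38 late. Its difference of -1.07 did not pass (adjusted p = 0.0697), and 2 other Klf10 probe sets gave 0.12 and -0.13.

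Mmp10, which encodes the matrix metalloproteinase stromelysin-2, was low early under the regimen and close to breast-fed levels late. Its late signals were 71.1 to 154 (median 119) under formula and hypoxia and 125 to 243 (median 158) under breast feeding. Its early signals were 15.6 to 62.5 (median 43.2) under formula and hypoxia and 152 to 271 (median 183) under breast feeding. The early groups did not overlap and the late groups did. The late effect was -0.49 (adjusted p = 0.239), the early effect -2.12 (4.34-fold lower, adjusted p = 1.66e-05), and the difference 1.62 (0.97 to 2.28, adjusted p = 0.0428). Formula and hypoxia pups rose by 1.39 between the phases (adjusted p = 0.000747), and the value in breast-fed pups was -0.24 (adjusted p = 0.551). Without both arrays that stood apart the difference was 1.82 (adjusted p = 0.026). It passed in 7 of 24 single omissions (adjusted p from 0.0257 to 0.105) and had adjusted p = 0.121 with the accession run as a term.

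Some other matrix and muscle probe sets were also lower early. Of 73 probe sets in the fibroblast and matrix list, 8 were lower and 0 higher early (against 0.835% and 0.503% of all probe sets). Late, 5 were lower and 1 higher, against 2.78% and 1.35% of all probe sets. Mmp10 was the only one to pass the difference. At an unadjusted p under 0.05, 12 were higher and 0 lower, beside 4.02% and 6.21% of all probe sets. The median difference was 0.20, and 0.08 with arrays scaled to a common median. Serpinh1, the collagen chaperone HSP47, had late signals of 135 to 307 under formula and hypoxia and 153 to 295 under breast feeding, and early signals of 43.9 to 83.9 under formula and hypoxia and 140 to 353 under breast feeding. Only its early groups stood apart: the late effect was -0.22, the early effect -1.54 (adjusted p = 0.000338), and the difference 1.32 did not pass (adjusted p = 0.1005). Sparc, a matrix glycoprotein gene, had -0.10 late and -0.91 early (adjusted p = 0.0385) at probe set Y13714_at, with a difference of 0.81 (adjusted p = 0.36). The small proteoglycan gene Lum was instead lower in both phases, by -1.56 late (adjusted p = 0.00413) and -1.49 early (adjusted p = 0.0105), with a difference of -0.06 (-0.93 to 0.81).

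In the smooth muscle list, 25 of 27 probe sets had a positive difference, and 0 passed the adjusted test. At an unadjusted p under 0.05, 7 were higher and 0 lower, beside 4.02% and 6.21% of all probe sets. The list's median effect was 0.06 late and -0.52 early, and its median difference of 0.50 lay between 0.26 and 0.66 in the other settings. Early, 3 were lower and 0 higher, beside 0.835% and 0.503% of all probe sets. They were Pln, a regulator of the calcium pump, at -1.50 (adjusted p = 9.81e-05), Tpm2 (tropomyosin) at -0.93 and Tagln (transgelin) at -0.79. Late, 0 were lower and 0 higher, beside 2.78% and 1.35% of all probe sets. Des, the muscle filament desmin, had 1.01 late and -0.78 early, neither passing, and a difference of 1.79 (adjusted p = 0.120). The summed signal of all 27 was 21530.0 to 34448 in late formula and hypoxia arrays, 20856 to 30182 in late breast-fed arrays, 14317 to 20326 in early formula and hypoxia arrays and 18781 to 26875 in early breast-fed arrays. Both ends of the early range of this sum were lower under formula and hypoxia, but the early ranges overlapped and the sum was not tested. Its part in the early Mmp10 and Serpinh1 results was not tested either. In bulk tissue, fewer cells of a type and less RNA per cell cannot be told apart.

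**Figure D3:**
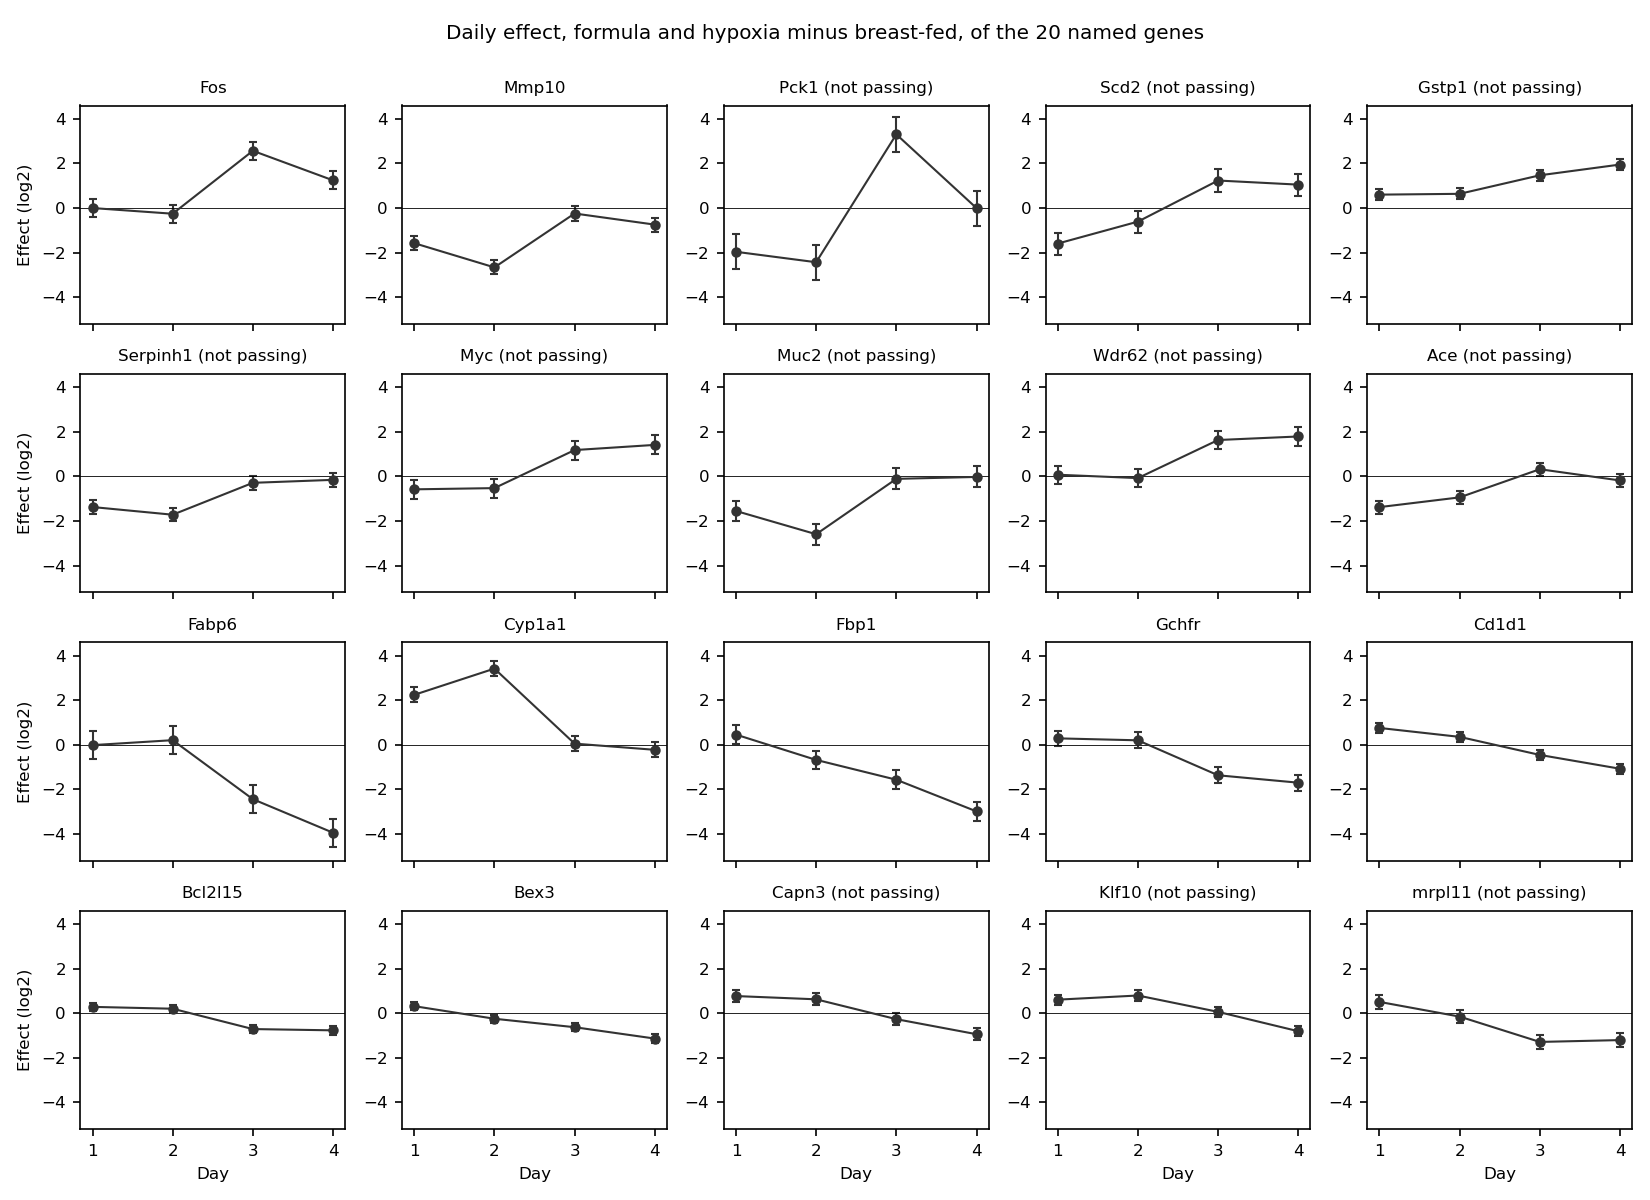
Daily effect (formula and hypoxia minus breast-fed, log2, y axis) on days 1 to 4 (x axis) for the 20 genes named by rule, with bars of 1 standard error from the limma fit on 3 arrays per group. Cyp1a1 is high on days 1 and 2 and near 0 later, Mmp10 is low on days 1 and 2, and Fabp6, Fbp1 and Gchfr lie well below 0 on days 3 and 4.

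Fabp6, the ileal bile acid binding protein, and Fbp1, the gluconeogenic fructose bisphosphatase, differed through a rise in breast-fed pups that pups under the regimen did not show. Fabp6 at probe set S52878_s_at had late signals of 2.87 to 23.3 (median 6.37) under formula and hypoxia and 23.3 to 385 (median 176) under breast feeding. Its early signals were 7.45 to 44.1 (median 19.0) under formula and hypoxia and 9.70 to 49.5 (median 12.2) under breast feeding. The lowest late breast-fed value came from day 3 replicate 3, 1 of the arrays that stood apart, and lay just above the highest late formula and hypoxia value. The late effect was -3.19 (adjusted p = 0.000233), the early effect 0.10 and the difference -3.29 (-4.60 to -1.98, adjusted p = 0.0428), or -3.77 without both arrays (adjusted p = 0.00103). Breast-fed pups rose by 2.65 (adjusted p = 0.00539), and the value in formula and hypoxia pups was -0.63 (adjusted p = 0.41). These contrasts share the late breast-fed arrays. A brighter Fabp6 probe set, L22788_i_at, gave another picture, with signals of 417 to 1728 over all 24 arrays, a late effect of 0.54, an early effect of 0.33 and a difference of 0.21 (adjusted p = 0.897). The probe sets of this gene thus disagree, and the result belongs to S52878_s_at only.

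Fbp1 had late signals of 26.2 to 186 (median 89.9) under formula and hypoxia and 256 to 833 (median 408) under breast feeding. Its early signals were 87.9 to 220 (median 124) under formula and hypoxia and 123 to 203 (median 139) under breast feeding. The late groups did not overlap and the early groups did. The daily effects were 0.46, -0.68, -1.57 and -2.99. The late effect was -2.28 (4.85-fold lower, adjusted p = 9.76e-05), the early effect -0.11 (adjusted p = 0.938), and the difference -2.17 (-3.03 to -1.30, adjusted p = 0.0428). Breast-fed pups rose by 1.496 (adjusted p = 0.011), and the value in formula and hypoxia pups was -0.67 (adjusted p = 0.16). Without both arrays the difference was -2.22 (adjusted p = 0.0726), with the late effect still passing (-2.33, adjusted p = 0.00052). With the accession run as a term the Fbp1 difference was -2.01 (adjusted p = 0.121). Fabp6 passed in 6 and Fbp1 in 7 of 24 single omissions.

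Other genes of nutrient handling had wide differences that did not pass. Pck1, the rate-limiting enzyme of gluconeogenesis, had the most positive difference of all 8740 probe sets at 3.85 (2.21 to 5.49, adjusted p = 0.0566). Its signals on day 3 were 820, 189 and 515 under formula and hypoxia, against 42.2, 96.5 and 8.80 under breast feeding, and on day 4 they were 57.6, 235 and 567, against 315, 159 and 163. Its daily effects were -1.96, -2.43, 3.31 and 0.00, so the late value came from day 3. With all arrays, the day 3 effect minus the early effect was 5.50 (adjusted p = 0.0278), and the day 4 effect minus the early effect was 2.19 (adjusted p = 0.638). The breast-fed signal of 8.80 on day 3 came from replicate 3, 1 of the arrays that stood apart. Without both arrays the Pck1 late minus early difference was 3.40 (adjusted p = 0.125) and its late effect 1.21 (adjusted p = 0.34). Scd2, a fatty acid desaturase gene, had 1.14 late, -1.10 early and a difference of 2.24 (adjusted p = 0.0816). Its 5 other probe sets ran from 0.02 to 2.21. Me1, malic enzyme, which feeds fatty acid synthesis, had 0.47 late and -1.01 early (adjusted p = 0.0489), with a difference of 1.47 (adjusted p = 0.116). Slc15a1, the peptide transporter, was higher late at both of its passing probe sets (1.32 and 1.71, adjusted p = 0.00443 and 0.0112) and had early effects of 0.08 and 0.12, with differences of 1.24 and 1.59 (adjusted p = 0.213 and 0.271). The fructose transporter gene Slc2a5 had 0.78 late and 1.71 early (adjusted p = 0.00702), with a difference of -0.93 (adjusted p = 0.496) at D13871_s_at, and its other probe set gave -1.22 (adjusted p = 0.36). Among 36 brush border probe sets the median difference was 0.37, and 0.25 with the deposited scaling and 0.19 with a common median. At an unadjusted p under 0.05, 8 of them were higher and 3 lower, beside 4.02% and 6.21% of all probe sets. The median was -0.12 among 20 probe sets for bile acid handling. It was -0.00 among 21 for gluconeogenesis and sugar handling, and -0.12 with a common median. It was 0.14 among 27 for fatty acid synthesis, and 0.29 without both arrays.

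Another group of transcripts was near or above breast-fed levels early and below them late. Cd1d1, which presents lipids to natural killer T cells, had late signals of 105 to 191 (median 152) under formula and hypoxia and 192 to 357 (median 266) under breast feeding. Early it had 247 to 418 (median 285) under formula and hypoxia and 158 to 257 (median 207) under breast feeding. The late groups touched without overlapping, and the early ones overlapped only at their edges. Its difference was -1.32 (-1.79 to -0.85, adjusted p = 0.018), with a late effect of -0.76 (adjusted p = 0.00759) and an early effect of 0.55 (adjusted p = 0.0948). The call ended without formula and hypoxia day 2 replicate 3 (adjusted p = 0.057) and without formula and hypoxia day 4 replicate 2 (adjusted p = 0.0534). It also ended without both arrays that stood apart (-1.18, adjusted p = 0.0591), where the late effect was -0.63 (adjusted p = 0.0571), and with the accession run as a term (-1.24, adjusted p = 0.057).

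Gchfr, the feedback regulator of tetrahydrobiopterin synthesis, had late signals of 90.5 to 211 under formula and hypoxia and 258 to 505 under breast feeding, which did not overlap, and early signals of 264 to 659 and 215 to 478, which did. Its difference was -1.78 (-2.51 to -1.05, adjusted p = 0.0446), with -1.53 late (adjusted p = 0.00126) and 0.24 early. Bcl2l15, a member of the BCL2 family, had late signals of 2967 to 4670 under formula and hypoxia and 5652 to 7398 under breast feeding. Early they were 5503 to 6380 under formula and hypoxia and 4421 to 5756 under breast feeding, so the late groups stood apart and the early ones overlapped. Its difference was -0.98 (-1.37 to -0.59, adjusted p = 0.0428), with -0.74 late (adjusted p = 0.00264) and 0.24 early (adjusted p = 0.512). Bex3, a small adaptor of neurotrophin receptor signalling, had late signals of 306 to 604 under formula and hypoxia and 698 to 861 under breast feeding, against early ones of 801 to 1247 and 758 to 1089. Its difference was -0.92 (-1.30 to -0.53, adjusted p = 0.0471), with -0.89 late (adjusted p = 0.000422) and 0.03 early. The unannotated probe set rc_AI639139_g_at had a difference of -2.42 (-3.39 to -1.44, adjusted p = 0.0428), with -1.01 late (adjusted p = 0.0915) and 1.41 early (adjusted p = 0.0324). These 4 probe sets passed in 5 or 6 of 24 single omissions and had adjusted p from 0.0769 to 0.103 without both arrays that stood apart.

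The genes next in line in that direction were mrpl11, which encodes a mitochondrial ribosomal protein, at -1.42 (adjusted p = 0.0697) and the muscle calpain gene Capn3 at -1.30 (adjusted p = 0.0649). For mrpl11 the late signals were 119 to 254 under formula and hypoxia and 296 to 455 under breast feeding, which did not overlap, with a late effect of -1.25 (adjusted p = 0.00221) and an early effect of 0.17. Capn3 had -0.61 late and 0.69 early, neither passing, and its 2 other probe sets gave differences of -1.11 and -1.18. Among 51 proteasome and ubiquitin probe sets, 9 were lower and 0 higher at an unadjusted p under 0.05, beside 6.21% and 4.02% of all probe sets, with 0 passing. The list's median was -0.06, and -0.31 without both arrays, -0.26 with the accession run as a term, -0.24 with a common median and -0.14 with the deposited scaling. In the late effect 6 were lower and 0 higher (3 lower without both arrays), beside 2.78% and 1.35% of all probe sets. Early, 0 were called, beside 1.34% of all probe sets. Psma4, a subunit of the proteasome core, had -0.99 late (adjusted p = 0.000854) and -0.19 early, and its difference of -0.80 did not pass (adjusted p = 0.204). Among 55 probe sets of liver secreted proteins the median difference was -0.22, with 7 lower and 2 higher at an unadjusted p under 0.05, beside 6.21% and 4.02% of all probe sets. The fetal serum protein gene Afp was lower late at 5 probe sets, by -1.20 to -2.52, with differences of -0.97 to -1.69, none passing. Without both arrays the late Afp effect no longer passed at rc_AA998229_at (adjusted p = 0.0747) and rc_AI237884_s_at (adjusted p = 0.0891).

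Early, 0 of 61 probe sets for oxidative stress defence were higher and 1 lower, beside 0.503% and 0.835% of all probe sets. Some were higher late: 6 were higher and 0 lower in the late effect, beside 1.35% and 2.78% of all probe sets. Gstp1 and Hmox1 each had more than 1 of these 6. Without both arrays 6 were higher and 2 lower late, but not the same 6, since the Hmox1 probe sets no longer passed. Gstp1, a glutathione transferase, had late signals of 3015 to 5164 (median 3886) under formula and hypoxia and 916 to 1478 (median 1223) under breast feeding. Early they were 775 to 2362 (median 1620) under formula and hypoxia and 698 to 1448 (median 944) under breast feeding. The late groups stood far apart and the early groups overlapped. Its daily effects were 0.60, 0.64, 1.47 and 1.95. The late effect was 1.71 (3.27-fold, adjusted p = 1.11e-05), the early effect 0.62 (adjusted p = 0.0803), and the difference 1.09 did not pass (0.58 to 1.60, adjusted p = 0.0846). A second Gstp1 probe set gave a difference of 1.94 (adjusted p = 0.333). Hmox1, the inducible heme oxygenase, had 2.77 late (adjusted p = 0.0314) and -0.76 early at J02722cds_at, with a difference of 3.53 (1.41 to 5.65, adjusted p = 0.213). Without both arrays that stood apart its late effect was 1.93 (adjusted p = 0.151), and its second probe set gave 1.87 late with all arrays (adjusted p = 0.0835 without both) and a difference of 2.19. Over the list the median difference was 0.28, and 0.03 without both arrays. Among 43 probe sets for the hypoxia response and glycolysis it was 0.08. In the late effect 3 were higher and 0 lower (1 higher without both arrays), beside 1.35% and 2.78% of all probe sets. These 3 were Hk2 and the Hmox1 probe sets already counted above. Early, 0 were called, beside 1.34% of all probe sets. Hk2, hexokinase 2, had 1.16 late (adjusted p = 0.00394) and -0.11 early, and a difference of 1.27 (adjusted p = 0.116), whereas its other probe set gave 0.02.

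Muc2, Ace and Wdr62 completed the genes named by rule. Muc2, the gel-forming mucin of goblet cells, had late signals of 773 to 2661 under formula and hypoxia and 770 to 2060 under breast feeding, and early signals of 119 to 356 and 324 to 1156. The late groups overlapped over most of their ranges and the early ones only slightly. The late effect was -0.07 and the early effect -2.07 (adjusted p = 0.00184). The difference of 2.004 did not pass (adjusted p = 0.107), and 2 dimmer probe sets for Muc2 gave 0.49 and -0.25. Ace, angiotensin-converting enzyme, had late signals of 285 to 458 under formula and hypoxia and 241 to 492 under breast feeding, and early signals of 146 to 330 and 389 to 714. Only the early groups stood apart, with a late effect of 0.07, an early effect of -1.16 (adjusted p = 0.00516) and a difference of 1.23 (adjusted p = 0.111). Wdr62, a centrosomal protein gene, had 1.71 late (adjusted p = 0.00162) and 0.00 early at rc_AI639326_g_at, with a difference of 1.71 (adjusted p = 0.109), whereas a dimmer probe set of the gene gave 0.14.

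**Figure D4:**
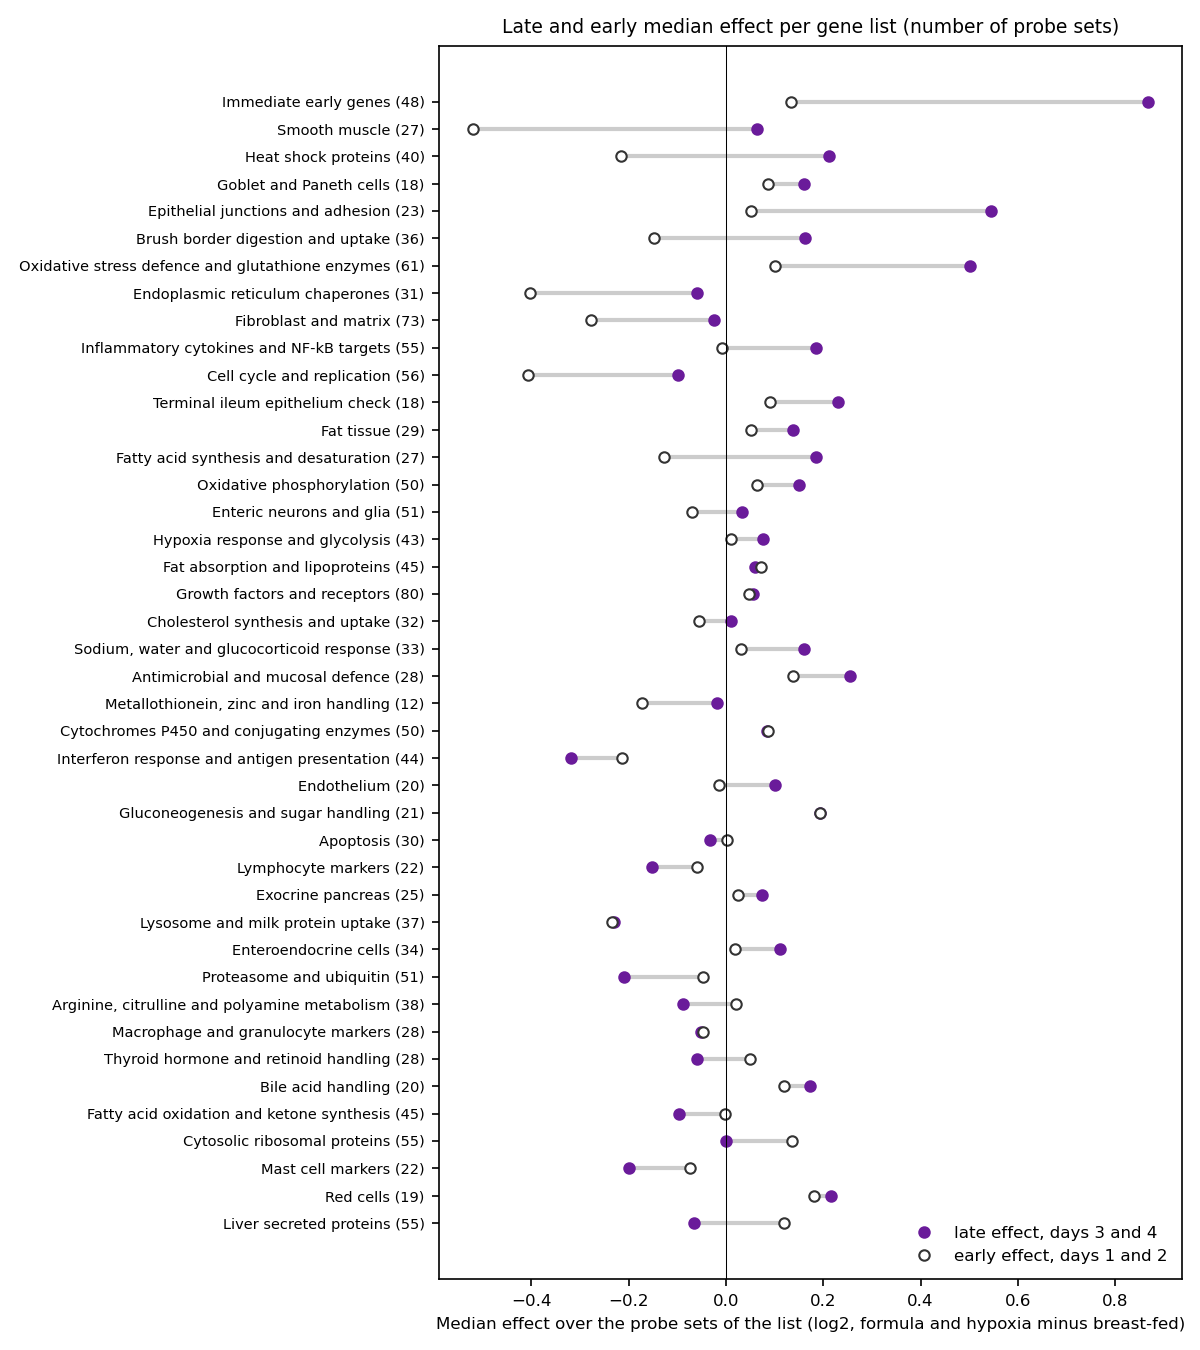
Median effect of formula and hypoxia minus breast feeding (log2, x axis) over the probe sets of each of 42 gene lists, late (filled) and early (open), ordered from top to bottom by the median of the late minus early differences. Immediate early genes have a late median of 0.87 and an early one of 0.13, and smooth muscle has an early median of -0.52 and a late one of 0.06; no test is attached to a list.

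For some strong regimen effects present in both phases, the difference did not pass. Lgals3, which encodes galectin-3, was higher by 2.08 late (adjusted p = 8.53e-05) and by 2.40 early (adjusted p = 2.75e-05), with a difference of -0.32 (-1.10 to 0.46). The membrane mucin gene Muc3 had 1.45 late (adjusted p = 0.0067) and 2.18 early (adjusted p = 0.00026), with a difference of -0.74 (-1.60 to 0.13). Cyp27a1, the sterol 27-hydroxylase, had 2.17 late and 1.61 early, both passing, and a difference of 0.56 (-0.25 to 1.36). Hspa5, the endoplasmic reticulum chaperone BiP, was lower by -2.40 late (adjusted p = 1.35e-05) and by -1.97 early (adjusted p = 0.000239), with a difference of -0.43 (-1.20 to 0.34). The chymase gene Mcpt4 was lower by -3.72 late (adjusted p = 6.42e-07) and -2.42 early (adjusted p = 0.000157), and its difference of -1.29 did not pass (-2.19 to -0.39, adjusted p = 0.271). In the mast cell list 5 of 22 probe sets were lower late and 5 early, beside 2.78% and 0.835% of all probe sets. Its summed signal was 1109 to 1521 in late formula and hypoxia arrays, 1795 to 3060.4 in late breast-fed arrays, 1384 to 2415 in early formula and hypoxia arrays and 2369 to 3657 in early breast-fed arrays. Intervals this wide do not show that such effects were equal. Interferon and antigen presentation genes had 0 of 44 probe sets at an unadjusted p under 0.05 for the difference, and red cell markers 0 of 19, beside 10.2% of all probe sets.

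The difference is also the change over time under the regimen minus the change over time in breast-fed pups. From the early to the late phase 874 probe sets (10%) changed in formula and hypoxia pups, 430 higher (4.92%) and 444 lower (5.08%), and 364 (4.16%) changed in breast-fed pups, 221 higher (2.53%) and 143 lower (1.64%). Without both arrays that stood apart these counts were 1041 and 56, and with the accession run as a term they were 788 and 23. The breast-fed count moved with single early or late arrays too: it was 71 without day 4 replicate 2, 114 without day 3 replicate 3, 126 without day 2 replicate 1, 133 without day 2 replicate 3, 136 without day 1 replicate 3 and 156 without day 1 replicate 2. Of the 10 annotated probe sets that passed the difference, Fabp6 and Fbp1 changed in breast-fed pups and not past the threshold under the regimen. The remaining 8, for Cyp1a1, Fos at both probe sets, Mmp10, Gchfr, Cd1d1, Bcl2l15 and Bex3, changed under the regimen and did not pass in breast-fed pups.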

How the data were processed

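Total RNA of the terminal ileum was hybridised, 1 pup per array, and the authors deposited 1 linear intensity per probe set and array, from 0.000562 to 22483. The software and background correction behind them: not given in the sources used here. On 26 of the 28 arrays the 2% trimmed mean was about 150. Groups and replicate numbers came from the titles. The intensities of 24 arrays were quantile normalised, 8 was added and log2 taken. In R 4.3.3 with limma 3.58.1, 1 mean per group was fitted (16 residual degrees of freedom), moderated by empirical Bayes with an intensity trend, with Benjamini-Hochberg adjustment over 8740 probe sets and 95% intervals. The fit was tested on simulated data.

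The platform annotation gave 1 symbol for 7006 of these probe sets, several for 308 and none for 1426, and 6985 of the 7006 matched RefSeq. Of the passing probe sets with a symbol and a group mean of at least 32, the 15 largest differences each way were to be named, 1 probe set per gene, completed to 10 each way by the smallest unadjusted p. Of each list the passing members, or the 2 with the smallest unadjusted p, were named, and further members were chosen after their values were seen. The comparison and the 42 lists (84 probe sets stand in several) were chosen with earlier results of these data known. The alternatives were other scalings, pseudocounts, filters, array sets, weights, an accession run term, a replicate block, single omissions and other days. Replicates are separate pups per the labels, 0 pairs of arrays were identical, and p-values measure the spread between pups.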

Additional observations from a re-analysis of the deposited data

Results flagged for a closer look

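The 12 probe sets below were singled out because the effect of formula and hypoxia differed between days 3 and 4 and days 1 and 2 by the limma test of the difference itself. The log2 late minus early differences were -2.91 for Cyp1a1 (E00778cds_s_at) and -2.84 for the unannotated E00717UTR#1_s_at, where an early effect was absent late. They were 2.78 for Fos at X06769cds_at and 2.03 at X03347cds_g_at, where the effect was late, and 1.62 for Mmp10 (M65253_at), low early under the regimen. In probe sets that rose in breast-fed pups they were -3.29 (Fabp6, S52878_s_at, against 0.21 at the brighter L22788_i_at) and -2.17 (Fbp1, M86240_at). They were -2.42 for the unannotated rc_AI639139_g_at, -1.78 for Gchfr (U85512_s_at), -1.32 for Cd1d1 (D26439_at), -0.98 for Bcl2l15 (rc_AI639530_at) and -0.92 for Bex3 (rc_AA874794_g_at). No explanation was tested for any of them.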

How the results depend on the processing

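Among the named and passing probe sets 0 differences changed sign in any setting, but these probe sets were picked for small p-values. The medians of some lists did change sign. For oxidative phosphorylation the median difference was 0.10, and -0.24 without both deviating breast-fed arrays. The count of 12 differences (3 higher, 9 lower) depended on the setting. It was 6 (1 higher, 5 lower) with a common median, 6 (2 and 4) without both deviating breast-fed arrays, 19 (6 and 13) above the 60th percentile of signal, 6 above the 40th percentile with 1 probe set per gene, 4 with the accession run as a term, 7 with a linear trend over days, 4 for day 4 minus day 1 (0 higher, 4 lower), 5 for day 3 (3 and 2) minus the early days and 2 in the first run alone. It was 11 with the deposited scaling (1 higher, 10 lower). Fewer probe sets are tested under the filters, and otherwise the cause was not tested. The early count of 117 (44 higher, 73 lower) was 74 (41 and 33) with the deposited scaling and 271 with array weights. The late count of 361 (118 and 243) was 207 (96 and 111) without both arrays, 88 (36 and 52) with the run term and 448 (88 and 360) with a common median. The breast-fed count of 364 (221 and 143) was 56 (44 and 12), 23 (20 and 3) and 452 (330 and 122) in these settings, and 314 (270 and 44) with the deposited scaling.

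Leaving out 1 array at a time, the differences numbered 3 (without formula and hypoxia day 2 replicate 3 or day 4 replicate 2) to 23 (without formula and hypoxia day 1 replicate 3), a move of over 1.5 times in 18 of 24 omissions: all except replicate 2 of formula and hypoxia day 3, replicate 1 of its day 4, replicates 2 and 3 of breast-fed day 1, and replicate 1 of breast-fed days 3 and 4. Early effects numbered 77 (without breast-fed day 1 replicate 3) to 142. Late effects numbered 220 (without formula and hypoxia day 4 replicate 1) to 408, with 227 without breast-fed day 4 replicate 2 and 228 without formula and hypoxia day 3 replicate 1. Changes under formula and hypoxia numbered 552 (without day 4 replicate 1) to 960 and breast-fed changes 71 to 483. Cyp1a1, E00717UTR#1_s_at and Fos at X06769cds_at passed in all 24 omissions, and Cd1d1 in 22. Cyp1a1 and that Fos probe set did not pass for day 4 minus day 1 (adjusted p = 0.0626 and 0.0744). Over the named and passing probe sets, 219 checks lost a call, 30 gained one and 698 left the outcome unchanged. The 698 include checks in which a probe set that did not pass with the main setting still did not pass.

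With the replicate number as a replicate block the count was 7 (2 higher, 5 lower), all among the 12. The numbers gave no clear sign of pairing: over 84 pairs of arrays with the same number the median correlation of deviations was 0.004 (-0.30 to 0.23). Of these pairs 13 were above 0.1, and 9 of 24 arrays correlated best with their own number. With 3 arrays per group such correlations cannot settle whether the numbers pair the samples. Dim probe sets limit the sizes, since the arrays carry no detection call and folds near the pseudocount depend on it.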
